A study of Mus musculus with 6 samples.

Results

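Vascular endothelial growth factor (VEGF) ligands and receptors were followed in macrophages with and without the transcription factor c-Maf. The family was taken as 4 ligand genes (Vegfa, Vegfb, Vegfc and Pgf), 3 receptor tyrosine kinase genes (Flt1, Kdr and Flt4) and 2 co-receptor genes (Nrp1 and Nrp2). Its members are all non-control array probes that carry one of these 9 names: 14 probes among 55668 measured, and 9 genes among 34760 gene symbols or unnamed features. The RNA came from cultures that the labels call M2-like bone marrow-derived macrophages, or BMM, with liver as the tissue. The cells came from chimeras made with fetal liver that was WT or c-Maf KO, with 3 samples per genotype. The cells grew with M-CSF, the cytokine that drives macrophage differentiation, at 10 ng/ml in both groups, with daily additions from day 4. No other cytokine is named, the deleted part of the gene and the cells left from the host are not given in the sources used here, and the mice's age is not stated. The labels do not say whether replicates came from separate mice or dishes, so the p-values rest on a spread between samples that may be technical.

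VEGF ligands are secreted dimers that bind receptor tyrosine kinases at the cell surface. Vegfa binds the receptors encoded by Flt1 and Kdr, Vegfb and placental growth factor (Pgf) bind Flt1, and Vegfc binds Flt4 and, in its processed form, Kdr. The neuropilins Nrp1 and Nrp2 have no kinase of their own and act as co-receptors, for VEGF ligands and for class 3 semaphorins. Macrophages are known as a source of VEGF-A in wounds and tumours, and Flt1 is the VEGF receptor best known on monocytes and macrophages, whereas Kdr and Flt4 are best known on blood and lymphatic endothelium. Vegfa transcription is a textbook target of the oxygen-sensing HIF pathway.

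What each probe reads decides what its value means, because 4 of the genes have more than 1 probe and those probes lie far apart. Each probe has 60 bases. Those shown are the Flt1 and Kdr probes, because the results of these genes turn on which probe is read, and the probe of the co-receptor Nrp1. Each is given by a stretch of 30 bases, 5′ to 3′ as the arrays give it.

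Nrp1 probe, first 30 bases (chr8:131026650-131026709, mm9, plus strand): ttgtggatggtgtaaagttgaaaaaagata
Kdr upstream probe, last 30 bases (chr5:76330395-76330454, mm9, minus strand): ccgcccccaactcctggaaatcacgagaga
Kdr 3′ end probe, first 30 bases (chr5:76329309-76329368, mm9, minus strand): ctactgtatcctttagaattttaacctata
Flt1 3′ end probe, first 30 bases (chr5:148373791-148373850, mm9, minus strand): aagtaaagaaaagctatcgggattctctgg
Flt1 Ensembl transcript probe, first 30 bases (chr5:148446872-148446931, mm9, minus strand): ggagggtactgccgttcctgtgtggtattt

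The Kdr probes lie 1086 bases apart in the same transcript and the Flt1 probes shown lie 73081 bases apart on the genome. Base composition differed: 35.0% of the bases of the Kdr 3′ end probe and of the Flt1 Ensembl transcript probe were G or C, against 55.0% of the Kdr upstream probe. No member probe shared a run of more than 16 bases with a probe named for another gene. The other family members were read by an upstream Vegfa probe and another near the 3′ end of the gene (chr17:46154387-46154446), 1 probe each for Vegfb (chr19:7057245-7057304), Vegfc (chr8:55271533-55271592) and Flt4 (chr11:49465646-49465705), and a Pgf probe whose coordinates span 2003 bases (chr12:86508335-86510337). Nrp2 had a probe named for transcript variant 1 (chr1:62865129-62865188) and another for variant 5 (chr1:62843298-62843357), 21831 bases apart. A further Flt1 probe came from a placenta cDNA (chr5:148465976-148466035).

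Signals were read from 1-colour arrays through 2 sources. The scanner files of 5 arrays, 3 WT and the c-Maf KO replicates 2 and 3, give a level, the log2 of a probe's intensity over its array's 75th percentile, which lay at intensities of 411 to 495. The deposited value table gives each of the 6 samples as a ratio to the probe's median. For c-Maf KO replicate 1 this ratio is the only value, as its scanner output was not analysed here, so log2 ratios cover 6 samples and levels cover 5. Between 48.9% and 50.5% of probes were well above background per array, none was saturated, and the small number of arrays limits the precision. By the scanner files of these 5 arrays, the 3 WT arrays had slide row 1, and c-Maf KO replicates 2 and 3 had row 2. An effect of slide position on these arrays would thus look like one of genotype. The slide position of c-Maf KO replicate 1 is not known here. Maf, the targeted gene, had log2 ratios of 1.92, 1.98 and 2.03 in WT and -2.22, -2.36 and -1.92 in c-Maf KO, a difference of -4.14 (SE 0.12, limma adjusted p = 0.000826). Its second probe was well above background on all 3 WT arrays and not on either c-Maf KO array. All 10 macrophage marker genes on the array were measured, and of 14 endothelial markers 6 were measured and 8 were not.

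No member probe passed the test between genotypes. Of the 14 probes, 12 probes of 8 genes passed the filter of being well above background on at least 2 arrays, and the Flt4 probe and the placenta cDNA probe of Flt1 did not. By limma with Benjamini-Hochberg adjustment over all 28273 kept probes, 0 of 12 had an adjusted p under 0.05 on the 5 arrays, where 0.0248% of all kept probes did, and 0 of 12 in the value table, where 0.0212% did. At an unadjusted p under 0.05, 1 of 12 passed in each source, the Kdr 3′ end probe, against 10.5% (5 arrays) and 12.1% (value table) of all kept probes. The difference, log2 c-Maf KO minus WT, was positive for 8 of the 12 and had a median of 0.11 in the value table, against a median of -0.0038 over all kept probes, of which 49.1% were positive. The Kdr 3′ end probe met the filter through its 2 c-Maf KO arrays, where it was high, and was well above background on 1 of 3 WT arrays, so these counts support nothing about the whole family.

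**Figure D1:**
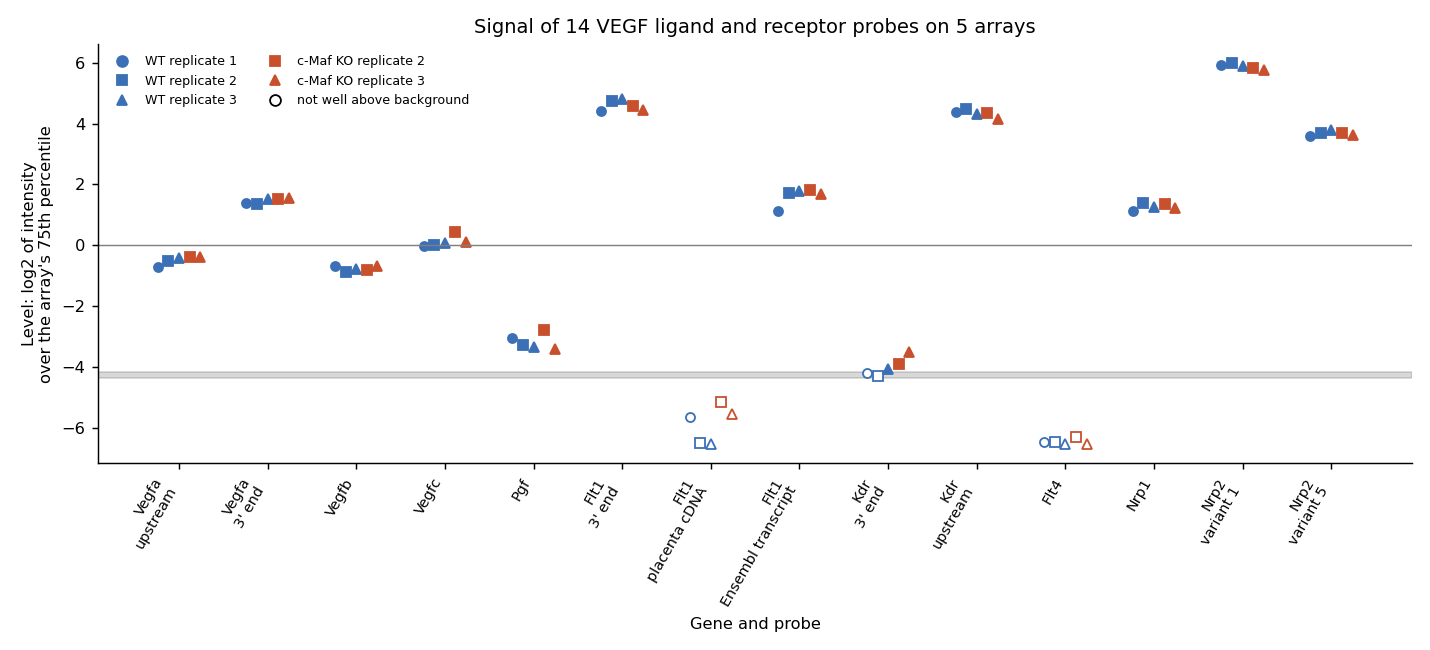
Level of each of the 14 member probes on the 5 arrays, as log2 of the intensity over the array's 75th percentile, with WT in blue and c-Maf KO in orange. Open symbols are signals not well above background, and the grey band spans the lowest level well above background on each array, -4.36 to -4.18. Heights of different probes are not comparable. The Flt4 probe and the placenta cDNA probe of Flt1 are open on all 5 arrays, and the Kdr 3′ end probe on WT replicates 1 and 2.

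The depth of the comparison can be read from its intervals. For the 11 probes well above background on all 5 arrays, the 95% intervals in the value table lay between -0.46 and 0.69 on the log2 scale. None of these reached a 2-fold change in either direction. On the 5 arrays they lay between -0.49 and 0.78. The Kdr 3′ end probe is left out here. It was not well above background on 2 of 3 WT arrays, so its interval, with upper bounds of 0.93 and 0.87, sets no limit on the fold. A p that misses the threshold does not show that the genotypes were alike.

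Among the ligands, Vegfa, the main inducer of blood vessel growth, was read by both of its probes on every array. Levels of the upstream probe were -0.73, -0.51 and -0.41 for WT replicates 1 to 3, and -0.40 for each of c-Maf KO replicates 2 and 3. Its log2 ratios in the value table were -0.33, -0.12 and 0.01 in WT and 0.02, 0.01 and -0.01 in c-Maf KO, in the order of replicates 1 to 3. WT replicate 1 was the lowest sample, WT replicate 3 lay among the c-Maf KO samples, and the c-Maf KO samples lay close together. The difference was 0.16 (SE 0.096, 95% interval -0.079 to 0.39, limma adjusted p = 0.558), a fold of 1.11.

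The 3′ end probe of Vegfa, spotted 2 times per array, had levels of 1.38, 1.36 and 1.54 in WT and 1.51 and 1.56 in c-Maf KO replicates 2 and 3. Its log2 ratios were -0.16, -0.18 and 0.02 in WT and 0.15, -0.02 and 0.02 in c-Maf KO. WT replicates 1 and 2 were the low samples here, and the groups overlapped through WT replicate 3. The difference was 0.16 for the 3′ end probe too (SE 0.084, interval -0.045 to 0.365, adjusted p = 0.501). Without WT replicate 1 the upstream probe gave 0.065 and the 3′ end probe 0.135. In the value table the upper bounds of the intervals were 1.31-fold for the upstream probe and 1.29-fold for the 3′ end probe. On the 5 arrays the upper bounds were log2 differences of 0.44 for the upstream probe and 0.32 for the 3′ end probe. These bounds rest on a spread between samples that may be technical, so they set no firm limit on the Vegfa difference.

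Vegfb, a ligand of Flt1 linked to heart and fat tissue, had levels of -0.67, -0.86 and -0.77 in WT and -0.82 and -0.67 in c-Maf KO replicates 2 and 3. The log2 ratios were 0.04, -0.15 and -0.04 in WT and 0.05, -0.09 and 0.04 in c-Maf KO. The groups overlapped throughout, with a difference of 0.051 (SE 0.079, interval -0.14 to 0.24, adjusted p = 0.824), which turned to -0.0011 without WT replicate 2 and was 0.097 without WT replicate 1. Over the 6 samples its log2 ratio ranged over 0.21, the narrowest range of the 12 tested probes.

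Vegfc, the lymphatic growth factor, measured -0.03, 0.00 and 0.08 in WT and 0.45 and 0.09 in c-Maf KO replicates 2 and 3 as levels. In the value table it was at -0.13, -0.09 and 0.01 in WT and 0.04, 0.37 and -0.01 in c-Maf KO. One sample, c-Maf KO replicate 2, stood above the other 5. On the 5 arrays the c-Maf KO levels lay above the WT levels, but in the value table c-Maf KO replicate 3 fell inside the range of WT. The difference was 0.21 (SE 0.11, interval -0.071 to 0.49, adjusted p = 0.520), and it was 0.092 without c-Maf KO replicate 2.

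Pgf, the placental growth factor, was dim: its levels were -3.04, -3.29 and -3.35 in WT and -2.78 and -3.43 in c-Maf KO replicates 2 and 3, all well above background. Log2 ratios were 0.13, -0.13 and -0.16 in WT and 0.33, 0.41 and -0.26 in c-Maf KO. The c-Maf KO samples held both the highest values and the lowest, so the group spread (SD 0.36, n = 3) exceeded the difference of 0.21 (SE 0.19, interval -0.26 to 0.69, adjusted p = 0.684). Leaving out c-Maf KO replicate 2 gave 0.090, and leaving out replicate 3 of that group gave 0.42. With normexp background correction the 5-array difference turned from 0.12 to -0.13.

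**Figure D2:**
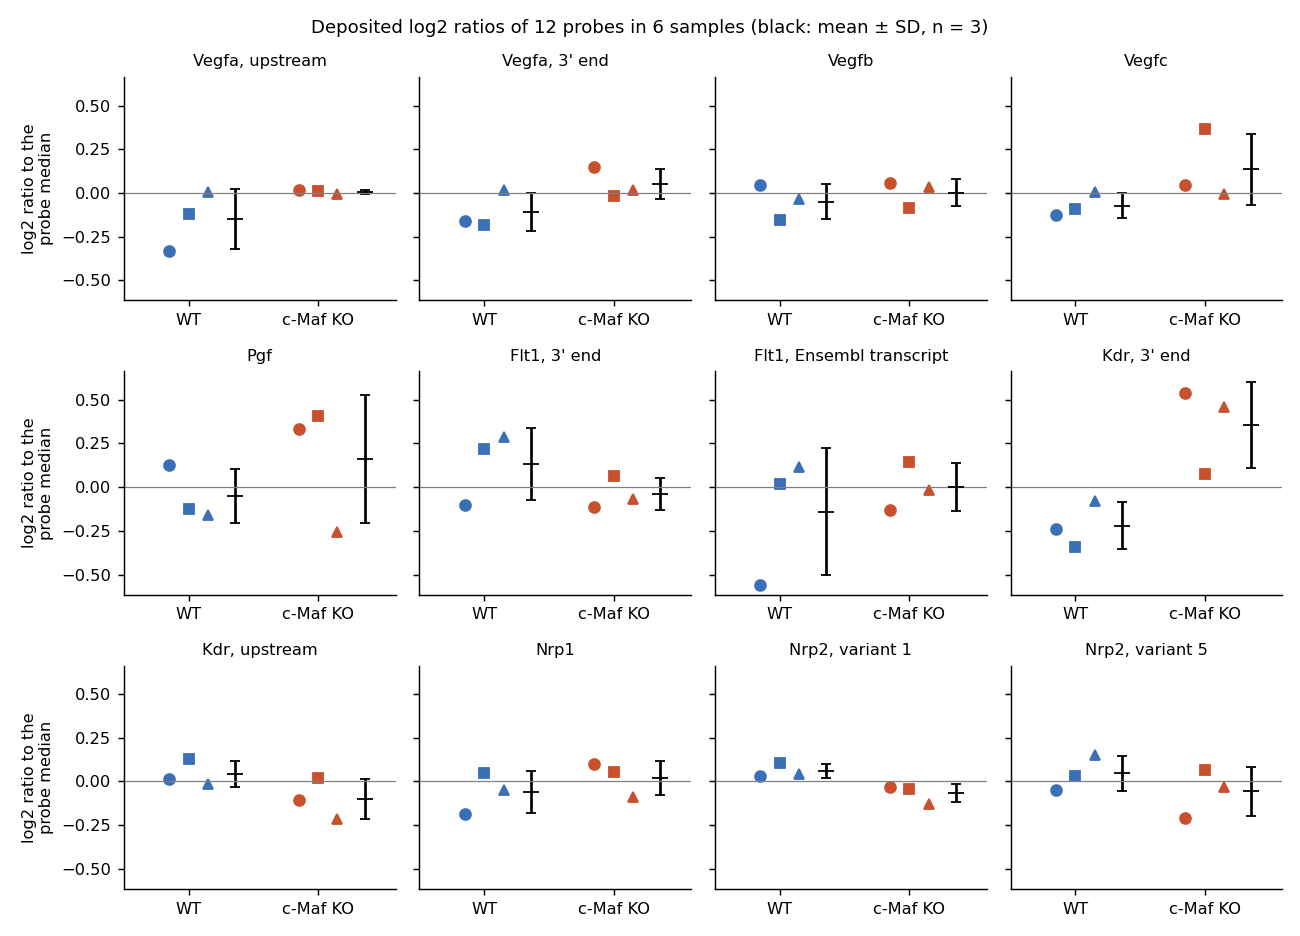
Deposited log2 ratio to the probe's median for the 12 tested probes in the 6 samples, with WT in blue and c-Maf KO in orange, and circles, squares and triangles for replicates 1, 2 and 3. Black bars are group means ± SD (n = 3). The groups are apart for the Kdr 3′ end probe, higher in c-Maf KO, and for the Nrp2 variant 1 probe, lower in c-Maf KO, and they overlap for the other 10 probes.

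Of the receptors, Flt1, which binds Vegfa, Vegfb and Pgf, gave a strong signal by its 3′ end probe. Levels were 4.43, 4.75 and 4.80 in WT and 4.58 and 4.46 in c-Maf KO replicates 2 and 3. The log2 ratios were -0.10, 0.22 and 0.29 in WT and -0.11, 0.07 and -0.07 in c-Maf KO. WT replicates 2 and 3 were the high samples, while WT replicate 1 lay among the c-Maf KO values. The difference was -0.17 (SE 0.12, interval -0.46 to 0.12, adjusted p = 0.596), and it was -0.29 without WT replicate 1 and -0.095 without WT replicate 3.

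The Flt1 probe designed to an Ensembl transcript measured 1.13, 1.71 and 1.78 in WT and 1.82 and 1.67 in c-Maf KO replicates 2 and 3. Its log2 ratios were -0.56, 0.02 and 0.12 in WT and -0.13, 0.15 and -0.02 in c-Maf KO. WT replicate 1 stood far below the other 5 samples, and without it the difference of 0.14 (SE 0.19, adjusted p = 0.792) turned to -0.067. Which Flt1 transcript form this probe reads, including whether it is a secreted form, was not settled here. The placenta cDNA probe of Flt1 had intensities of 8.38, 4.55 and 4.83 in WT and 12.2 and 10.6 in c-Maf KO replicates 2 and 3, not well above background on any array, and was not tested.

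Kdr, the main signalling receptor for Vegfa on endothelium, gave a bright signal by its upstream probe only. Intensities of that probe were 8713 to 9235, against 21.2 to 44.3 for the 3′ end probe of the same transcript. Whether the bright signal reads Kdr transcript was not tested. Levels of the upstream probe were 4.38, 4.49 and 4.33 in WT and 4.36 and 4.15 in c-Maf KO replicates 2 and 3, well above background on all 5 arrays. The log2 ratios were 0.02, 0.13 and -0.02 in WT and -0.10, 0.02 and -0.21 in c-Maf KO. WT replicate 2 was highest and c-Maf KO replicate 3 lowest, with overlap between the groups, and the difference was -0.14 (SE 0.084, interval -0.35 to 0.063, adjusted p = 0.546). It was -0.085 without c-Maf KO replicate 3.

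The Kdr 3′ end probe lay at the edge of detection and had a difference of the opposite sign. It was spotted 10 times per array, and 3, 1 and 5 of those spots were well above background on WT replicates 1 to 3, against 5 and 10 on c-Maf KO replicates 2 and 3. Levels were -4.20, -4.31 and -4.06 in WT and -3.90 and -3.51 in c-Maf KO, where the lowest level well above background was -4.36 to -4.18. As a whole the probe was well above background on 1 of 3 WT arrays and on both c-Maf KO arrays.

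Log2 ratios of the Kdr 3′ end probe were -0.24, -0.34 and -0.08 in WT and 0.54, 0.08 and 0.46 in c-Maf KO. Every c-Maf KO sample lay above every WT sample. The difference of the measured values was 0.58 (SE 0.14, limma adjusted p = 0.253). Since 2 of 3 WT arrays were not well above background and the probe met the filter through c-Maf KO, it is given as a description. With normexp background correction the difference on the 5 arrays was 0.039 in place of 0.49. Neither Kdr probe passed the test.

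Flt4, the receptor of Vegfc that marks lymphatic endothelium, was not well above background on any array. Its probe had intensities of 4.72, 4.59 and 4.86 in WT and 5.49 and 5.28 in c-Maf KO replicates 2 and 3. With only a bound in both groups, no fold is given.

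Of the co-receptors, Nrp1 had levels of 1.14, 1.38 and 1.25 in WT and 1.36 and 1.24 in c-Maf KO replicates 2 and 3. The log2 ratios were -0.19, 0.05 and -0.05 in WT and 0.10, 0.05 and -0.09 in c-Maf KO. WT replicate 1 was lowest, the groups overlapped, and the difference was 0.084 (SE 0.090, interval -0.14 to 0.30, adjusted p = 0.735). Leaving out WT replicate 1 gave 0.021 and leaving out c-Maf KO replicate 1 gave 0.045, while leaving out WT replicate 2 gave 0.14, as did leaving out c-Maf KO replicate 3.

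Nrp2, best known as the co-receptor for Vegfc, was bright by both probes. The variant 1 probe had levels of 5.92, 5.99 and 5.91 in WT and 5.82 and 5.76 in c-Maf KO replicates 2 and 3, and log2 ratios of 0.03, 0.11 and 0.04 in WT and -0.03, -0.05 and -0.13 in c-Maf KO. All c-Maf KO samples lay below all WT samples, by a small margin. The difference was -0.13 (SE 0.061, interval -0.28 to 0.022, adjusted p = 0.470), a fold of 0.916.

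The variant 5 probe of Nrp2 had levels of 3.60, 3.68 and 3.78 in WT and 3.70 and 3.62 in c-Maf KO replicates 2 and 3. Its log2 ratios, -0.05, 0.03 and 0.15 in WT and -0.21, 0.07 and -0.03 in c-Maf KO, overlapped between the groups (difference -0.10, SE 0.097, adjusted p = 0.699). It was -0.027 without c-Maf KO replicate 1, -0.048 without WT replicate 3 and -0.16 without c-Maf KO replicate 2. The separation seen with the variant 1 probe was thus not seen with the other Nrp2 probe.

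In the value table the groups did not overlap for 2 of the 12 probes, Kdr 3′ end (c-Maf KO above WT) and Nrp2 variant 1 (c-Maf KO below WT), against 19.4% of all kept probes. On the 5 arrays they did not overlap for 4 of 12, against 29.4%. Both shares are near the background of all probes and are no result about the family.

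**Figure D3:**
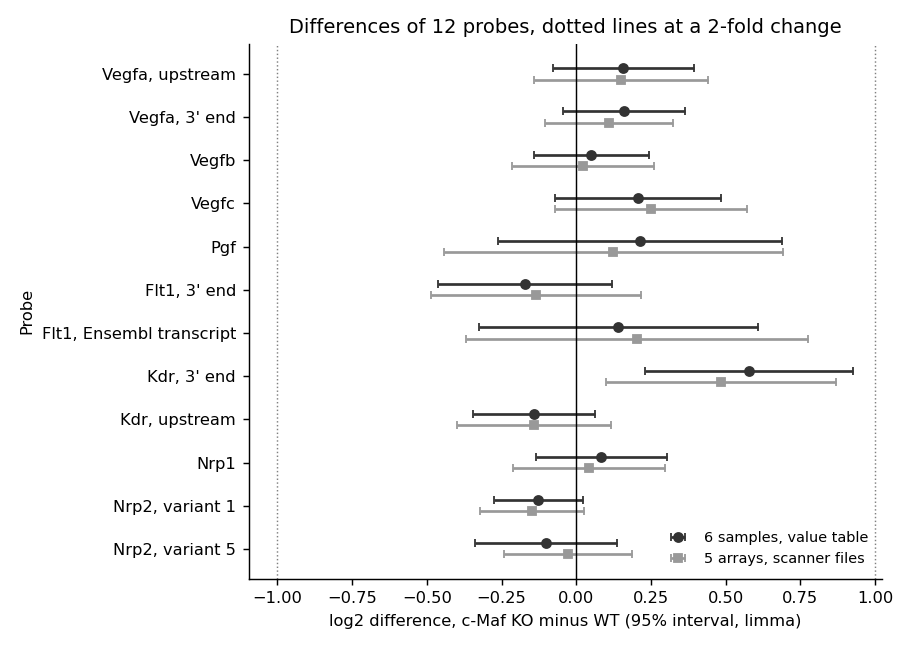
Difference in log2 signal, c-Maf KO minus WT, with its 95% interval by limma for the 12 tested probes, in the value table (black circles, 3 against 3 samples) and on the 5 arrays (grey squares, 3 against 2). Dotted lines mark a 2-fold change. The Kdr 3′ end probe, which met the filter through its c-Maf KO arrays, has the highest values, and its interval sets no limit on the fold. No interval of the other probes reaches a dotted line.

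Probes of one gene were then set side by side within each sample, as the difference of their log2 ratios. This was done after their values were seen, so it is a description with no test. For Kdr, 3′ end minus upstream was -0.26, -0.47 and -0.06 in WT and 0.64, 0.06 and 0.67 in c-Maf KO, with the 3′ end probe not well above background on 2 of 3 WT arrays. For Flt1, Ensembl transcript minus 3′ end was -0.45, -0.20 and -0.17 in WT and -0.01, 0.08 and 0.05 in c-Maf KO. The groups did not overlap for these 2 of the 4 pairs, nor for 12.9% of 12023 pairs of kept probes of 1 gene, and nothing is read from so few pairs. For Vegfa and Nrp2 the groups overlapped, with differences of -0.0030 and 0.025 between their means. The Flt1 and Kdr pairs each include one of the probes with 35.0% G and C, and the part of probe composition or of dim signal was not tested.

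**Figure D4:**
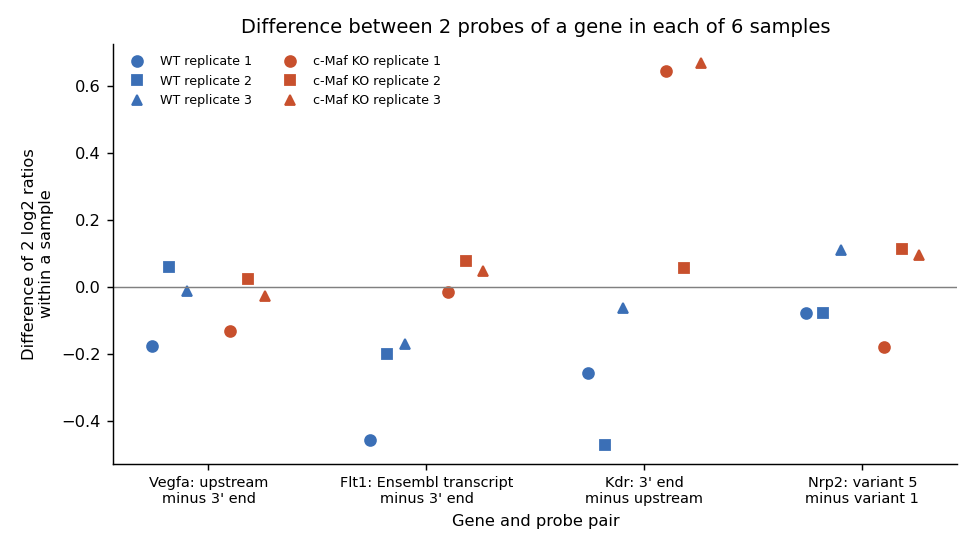
Difference between the log2 ratios of 2 probes of a gene, within each of the 6 samples (WT blue, c-Maf KO orange). The c-Maf KO points lie above all WT points for Flt1 (-0.01 to 0.08 against -0.45 to -0.17) and for Kdr (0.06 to 0.67 against -0.47 to -0.06), and mix with them for Vegfa and Nrp2.

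The samples in which a member was high or low can be compared with other genes. Of the members, Pgf, Vegfc and Flt1 varied most over the 6 samples by their brightest probe, with ranges of 0.66, 0.50 and 0.40 in log2 ratio. Among 4855 or 4856 other named probes with a range of at least 0.5, the patterns most like Pgf were those of Slc18a1, Chd6 and Rhox3f (Pearson r of 0.98, 0.97 and 0.96 over 6 samples). For Vegfc they were Axl, Klk1b4 and Zfp182 (r of 0.99 for each), and for Flt1 they were Sftpd, Bcas3 and Usp35 (r of 0.96, 0.95 and 0.94). These are the highest of many correlations over 6 samples on the same arrays and are given as a description.

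RefSeq promoters of GRCm38.p6, windows of 300 bases mostly before the transcription start, were matched for all 9 member genes, with 11 promoters. The letters ACGTG, the core of the hypoxia response element, were sought on both strands because Vegfa is a HIF target. They lay in 1 of the 11, the downstream Vegfa promoter (chr17:46025114-46025413), and not in the upstream Vegfa promoter (chr17:46032328-46032627). Of all 32851 promoters, 19.6% held them. The match, in capitals, is at position -211 relative to the start, within this stretch of 30 bases:

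Vegfa promoter stretch (chr17:46025357-46025386, GRCm38.p6, minus strand): ggagtgcgtgccCACGTcagagagcaacat

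Of the letters bound by Maf proteins, TGCTGA (both strands, one arm of the Maf recognition element) was in 0 of the 11 member promoters and in 19.5% of all, and TGACTCA (both strands, its AP-1 type centre) was in 0 of the 11 and in 5.2% of all. No match says only that these letters are not in these windows.

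The genes around the family were taken from lists of the pathway, with 1 probe per gene, the brightest that was kept. No listed gene had an adjusted p under 0.05 by limma in the value table, where 0.0296% of 20252 genes did, or on the 5 arrays, where 0.0247% did. All values of this and the following paragraphs on gene lists are from the value table unless arrays are named.

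Of 21 other angiogenic ligands and receptors on the array, 13 were measured, and Tek, Tie1, Dll4, Fgf2 and Vegfd were among the 8 that were not. The difference was positive for 11 of 13 with a median of 0.24, against 50.6% and 0.0017 over all genes, and 6 of 13 had an unadjusted p under 0.05, against 12% of all genes. On the 5 arrays 9 of 13 were positive, against 47.0% of all genes. All samples of c-Maf KO lay above all of WT for 5 of the 13, against 11.1% of all genes. The 4 brightest were Pdgfb (-0.10), Angptl4 (0.24), Pdgfa (0.20) and Thbs1 (0.89, SE 0.22, adjusted p = 0.256). Thbs1 encodes thrombospondin 1, an inhibitor of vessel growth, and had log2 ratios of -0.16, -0.99 and -0.64 in WT and 0.21, 0.16 and 0.52 in c-Maf KO. WT replicates 2 and 3 were its low samples.

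Of the neuropilin ligands and plexins, the partners of Nrp1 and Nrp2 in semaphorin signalling, 9 of 17 were measured. The difference was positive for 5 of 9 (median 0.036), against 50.6% of all genes. An unadjusted p under 0.05 was seen for 3 of 9, against 12% of all genes. Plxnd1, the receptor of semaphorin 3E, measured -0.27 (SE 0.083, limma adjusted p = 0.309) and Plxnb2 -0.21 (SE 0.053, adjusted p = 0.256). For these 2 of 9 the c-Maf KO samples lay below all WT samples, against 8.87% of all genes. Sema3c, a class 3 semaphorin named after its values were seen, lay above WT in each c-Maf KO sample (0.89, SE 0.21, adjusted p = 0.248). Such a separation upward was seen for 1 of 9, against 11.1% of all genes, and nothing is read from so few genes. Sema4d (0.043) and Plxna1 (-0.064) overlapped between genotypes.

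Of the genes that carry the VEGF receptor signal inside the cell, 37 of 38 were measured, with 18 positive differences and a median of -0.0022, close to that of all genes. An unadjusted p under 0.05 was seen for 6 of 37, against 12% of all genes. Differences in this list ran from -0.45 to 1.13. The c-Maf KO samples lay above all WT samples for 6 of 37, against 11.1% of all genes. They lay below all WT samples for 5 of 37, against 8.87%. The 4 brightest, the GTPases Cdc42 (-0.0022) and Rac1 (-0.0087), the kinase Akt1 (0.048) and the adaptor Grb2 (-0.068), overlapped between genotypes. Of the oxygen-sensing regulators, 13 of 15 were measured, 6 were positive and the median was -0.014. An unadjusted p under 0.05 was seen for 1 of 13, against 12% of all genes. The elongin genes Elob (0.050) and Eloc (0.15), the ubiquitin ligase subunit Rbx1 (0.15) and the prolyl hydroxylase Egln2 (-0.16) were the brightest of that list.

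Genes known to be induced by low oxygen, as Vegfa is, were measured for 27 of 29. The difference was positive for 22 of 27 with a median of 0.11, against 50.6% and 0.0017 over all genes. An unadjusted p under 0.05 was seen for 7 of 27, against 12% of all genes. On the 5 arrays 20 were positive, against 47.0% of all genes, with a median of 0.057. The 4 brightest, all of glycolysis, were Aldoa (0.029), Ldha (0.070), Gapdh (0.016) and Eno1 (0.038), and each overlapped between genotypes. Vegfa, at 0.16 by both probes, lay near the median of this list.

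Markers of other cells that make or bind VEGF were read beside the members, because in bulk cultures fewer cells of a type and less RNA per cell cannot be told apart. Of the 14 endothelial markers, the 6 measured had 4 positive differences and a median of 0.035, among them Vwf (0.0069), Eng (-0.20) and Pecam1 (-0.15). Their mean levels over the 5 arrays were 4.08 for Vwf, 2.08 for Eng and -1.36 for Pecam1, and Egfl7, Plvap and Esam were the others measured. The summed level of those 6, in multiples of the array's 75th percentile, was 20.9 to 24.1 on the WT arrays and 20.3 to 22.5 on the c-Maf KO arrays. Most of this sum was Vwf, so it says little about the other markers. For Eng every c-Maf KO sample lay below every WT sample, 1 of 6 in this list, against 8.87% of all genes. The defining endothelial genes Cdh5, Tie1, Tek, Cldn5, Emcn, Erg, Robo4 and Sox17 did not pass the filter. The part of endothelial cells in the signal of the Kdr upstream probe was not tested. Of 7 sinusoidal and lymphatic endothelial markers 3 were measured (2 positive, median 0.041), and Lyve1 and Prox1 were not. The measured ones were Oit3 (0.041), Stab2 (-0.63) and Pdpn (0.85, SE 0.13, limma adjusted p = 0.151). Every c-Maf KO sample lay above every WT sample for Pdpn, 1 of 3 in this list, against 11.1% of all genes. The genotypes overlapped for Oit3 and Stab2.

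Fibroblast and stromal markers had higher values in c-Maf KO. All 13 measured of 14 had positive differences, with a median of 0.91, against 50.6% and 0.0017 over all genes. An unadjusted p under 0.05 was seen for 10 of 13, against 12% of all genes, although none passed after adjustment. Their summed level was 158 to 243 on the WT arrays and 294 to 329 on the c-Maf KO arrays. The mean log2 ratio of the 13 was -0.086, -0.90 and -0.64 in WT and 0.19, 0.16 and 0.50 in c-Maf KO, so that WT replicate 1 lay nearest the c-Maf KO samples. Sparc measured 0.87 (SE 0.20, limma adjusted p = 0.245) and Tagln 0.71 (SE 0.18, adjusted p = 0.256), while Fn1 measured 0.0062. The part of stromal cells in the values of Vegfa, Vegfc, Pgf or Thbs1 was not tested.

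Macrophage identity genes had negative differences for 9 of 10, with a median of -0.20, where 50.6% of all genes had positive ones. An unadjusted p under 0.05 was seen for 6 of 10, against 12% of all genes. Csf1r, the M-CSF receptor, measured -0.088, Cd68 -0.054 and Adgre1 -0.22 (adjusted p = 0.406). Neutrophil markers were measured for 7 of 7 (1 positive, median -0.53) and megakaryocyte and platelet markers for 5 of 5 (2 positive, median -0.21). In both lists the genotypes overlapped for every gene, and 0 of 7 and 0 of 5 had an unadjusted p under 0.05. Hepatocyte markers were measured for 2 of 6 (median 0.019) and mast cell markers for 2 of 6 (median -0.43).

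**Figure D5:**
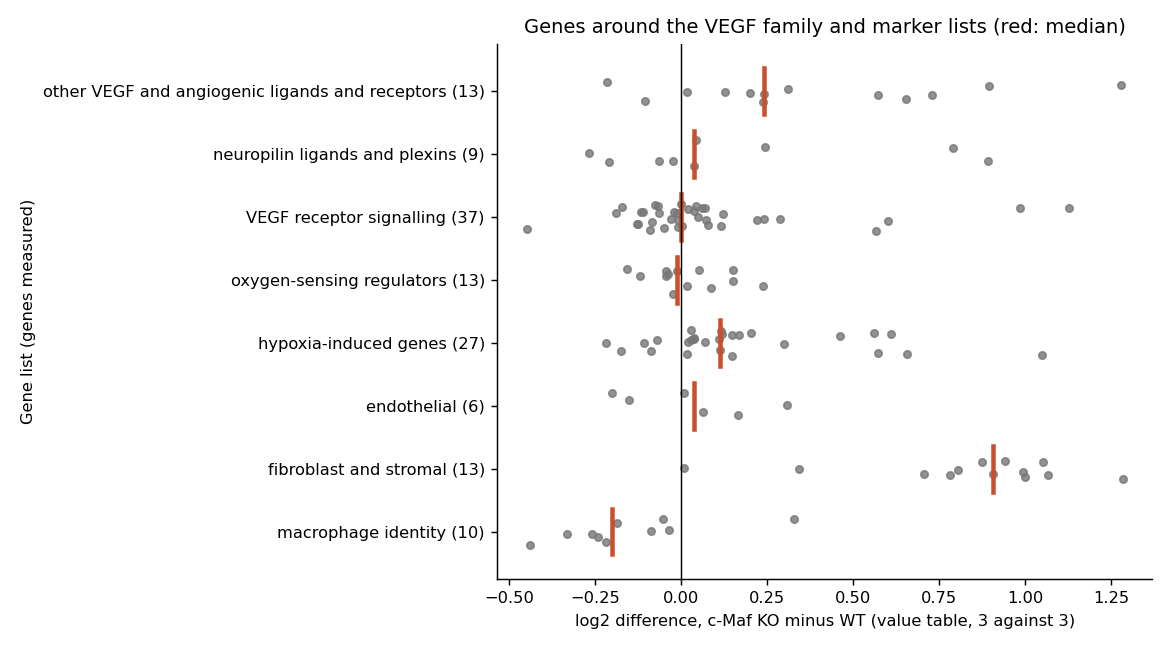
Difference in log2 ratio, c-Maf KO minus WT (value table, 3 against 3 samples), for each measured gene of the pathway lists and of 3 marker lists, with the median in red and the number of measured genes in parentheses. The medians of VEGF receptor signalling (-0.0022) and of oxygen-sensing regulators (-0.014) lie near 0, that of fibroblast and stromal markers at 0.91 and that of macrophage identity genes at -0.20.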

How the data were processed

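RNA of 3 WT and 3 c-Maf KO macrophage samples was hybridised to 1-colour Agilent mouse arrays. The authors extracted spot intensities with Agilent Feature Extraction 10.7.3.1 (per the file headers and the submitters' processing notes). The deposited value table holds ratios, each a sample's signal over the probe's median, on a linear scale read from its values: its log2, centred over the 5 arrays, followed the scaled scanner values. The authors' treatment of low values is not stated.

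Control spots and outlier-flagged spots (134 to 167 of 59305 per array) were left out. The log2 of the processed intensity minus the array's 75th percentile was averaged over spots of a probe. Probes well above background on at least 2 of 5 arrays were kept (28273), and coordinates are those of the files (mm9). Genes were renamed through RefSeq GRCm38.p6 for 28026 probes. Differences (c-Maf KO minus WT) were fitted by limma 3.58.1 under R 4.3.3 (lmFit, eBayes, Benjamini-Hochberg over all kept probes, adjusted p under 0.05), on the 5 arrays and on log2 of the value table. A run on simulated data checked the code only. Its noise was independent between probes and its changes were larger than any member difference, so it says nothing about the member results. No paired fit was the main one, since labels do not say that replicate numbers pair samples.

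Named were all member probes, the Maf probes, the 4 brightest measured genes of each pathway list, and the 3 genes most like each of 3 members. Also named were the 3 brightest of the macrophage, endothelial, sinusoidal and lymphatic endothelial, and stromal lists. Genes named as not measured, Sema3c, and the comparison of probe pairs, were chosen after the values were seen. The members and all lists were chosen with earlier results of these data known. Alternatives covered background correction, normalization, scaling, filters, the variance model, array weights, a replicate block, averaging WT replicates 1 and 3, each replicate left out, the source of values, the threshold, and averaging all kept probes of a gene. Other probe sequences are not reported here.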

Additional observations from a re-analysis of the deposited data

How the results depend on the processing

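No member probe had an adjusted p under 0.05 under any alternative run in either source, and no listed gene did with the probes of a gene averaged. Of the alternative values of the 12 differences, 167 kept their sign and 12 did not on the 5 arrays, and 153 kept it and 2 did not in the value table. On the 5 arrays the sign turned for Vegfb with normexp (-0.0034) and over replicates left out (-0.047 to 0.094), for Pgf with normexp (-0.13) and over replicates left out (-0.20 to 0.45), for Nrp1 with the replicate block (-0.017) and over replicates left out (-0.018 to 0.10), for the Flt1 Ensembl transcript probe with the replicate block (-0.0010) and over replicates left out (-0.0010 to 0.33), and for Nrp2 variant 5 over replicates left out (-0.071 to 0.019). In the value table it turned over replicates left out for Vegfb (-0.0011 to 0.097) and the Flt1 Ensembl transcript probe (-0.067 to 0.27). The causes were not tested.

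The count of all kept probes called, 7 on the 5 arrays, was 22 with normexp, 1 with probes well above background on all 5 arrays, 123 with a trend and robust variance model, 2 with WT replicates 1 and 3 averaged, 12 at an adjusted p under 0.1, and 2 to 18 over replicates left out. In the value table, 6 became 2 without a filter on dim probes, 50 with the trend and robust model, 11 at an adjusted p under 0.1, and 2 to 31 over replicates left out (31 without WT replicate 1). Samples of one number did not deviate together (correlations -0.0043, -0.044 and 0.081), so the numbers were not taken as pairs; the replicate block gave 0 calls over all probes on the 5 arrays, 7 in the value table, and 0 among the members in both. The Pgf and Kdr 3′ end signals were dim, and all values rest on few arrays. The parts of dim signal, of the number of arrays and of slide position in these values were not tested.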
